A study of Oryza sativa with 12 samples.

Results

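In rice leaves, the difference of stress responses between variety QJ10 (QJ in the column headers) and variety LJ31 (LJ) was examined gene by gene: the change under stress in QJ minus the change under stress in LJ. Genes qualified when joining the 4 deposited tables by gene ID gave them a value in each of the 12 libraries. Of 13674 genes, 5534 did, and 5170 of these were tested, having at least 1 FPKM (fragments scaled to transcript length and sequencing depth) in at least 3 libraries. The other 364 lay below that filter. The groups were stressed QJ leaves, QJ controls, stressed LJ leaves and LJ controls, 3 libraries each, called biological replicates by the submitters. Stress was bicarbonate salt-alkali stress at 200 mmol/L. Neither the age of the plants nor the length of the stress is given in the sources used here. No purpose is stated in the sources used here beyond the comparison of treated and control leaves.

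Bicarbonate stress joins sodium toxicity with a high pH. Leaves under salt lose water and build up abscisic acid, which switches on dehydrins and other late embryogenesis abundant (LEA) proteins, while sodium is pumped into vacuoles by exchangers of the NHX family and kept out of leaves by HKT transporters. High pH makes iron and phosphate poorly soluble, and grasses take up iron with secreted phytosiderophores and the transporters and regulators of that pathway. Prolonged stress in rice leaves is known to bring chlorophyll loss, the hallmark of senescence, with lower transcripts of the light-harvesting proteins.

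A response is the difference of means on the log2(FPKM + 1) scale, stressed minus control, so a value of 1 is close to a doubling for well expressed genes and less for genes near 0. The difference of responses is QJ minus LJ on the same scale: positive where QJ rose more, or fell less, than LJ. A response or difference was called at an adjusted p under 0.05 in limma's moderated test and a size of at least 1. The libraries of a group lay close together, with a median coefficient of variation of 13.7% to 15.4% for genes at 1 to 5 FPKM and of 2.36% to 2.82% at 50 FPKM or more, over the 4 groups. The p-values measure the spread between these libraries, and the depth of the libraries is unknown. How reads shared by close gene copies were counted is not given, so values of peroxidases, laccases, chitinases, germin-like and lipid transfer proteins carry that uncertainty. The 2 stress tables are named for the other variety than their headers, and the headers were used. Were the varieties exchanged, the sign of every QJ minus LJ difference below would turn, and the responses would change places between the varieties.

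Which genes could be tested was set by the authors' selection. In the authors' deposited tables every adjusted p listed was under 0.05 and every log2 fold change over 1 in size, so each holds genes called different in its own comparison. A gene reached all 12 libraries by being listed in both stress tables (2252 of the tested genes) or, for the other 2918, in both tables that compare the varieties. A gene listed in 1 stress table and in 1 table that compares the varieties lacks a group, and the 3540 genes with values in 3 of the 4 groups were not tested. The share of genes with unlike responses below is therefore a share of selected genes, not of the transcriptome.

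The change under stress had the same sign in both varieties in 76.4% of these selected genes, called or not. Called responses of the same sign were found in 1313 (25.4%), and neither response was called in 2190 (42.4%). The difference of responses passed at an adjusted p under 0.05 in 3431 of 5170 genes (66.4%) and was called, with a size of at least 1, in 1524 (29.5%). It was called more positive in QJ in 883 (17.1%) and more negative in QJ in 641 (12.4%). That balance depended on the scaling of the libraries. The median difference of all tested genes was 0.21 as deposited, -0.09 after median centring, 0.05 after quantile normalization and 0.03 on the scale of the authors' fold changes. The positive share of the called genes was 57.9% as deposited, 39.9%, 50.6% and 47.7% under those 3. Among genes listed in both stress tables, the difference was called more positive in QJ in 325 and more negative in 436.

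The QJ response was called in 1914 genes (37.0%), up in 1245 (24.1%) and down in 669 (12.9%). In LJ it was called in 2462 genes (47.6%), up in 1216 (23.5%) and down in 1246 (24.1%). Over the 5170 genes the 2 responses, which share no library, had a Pearson r of 0.67 and a Spearman rho of 0.70, and 76.4% of the genes had the same sign in both. Over the 2252 genes listed in both stress tables r was 0.76 and 92.3% had the same sign, against 0.25 and 64.1% over the other 2918. These are descriptions across genes, which are not independent replicates.

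**Figure D1:**
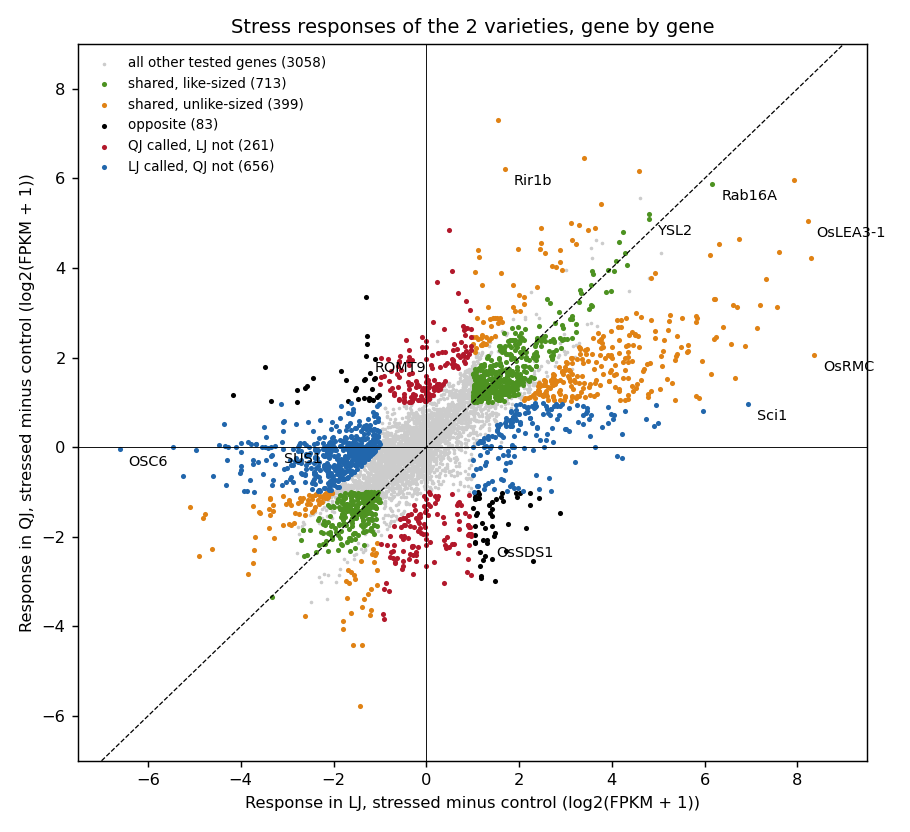
Response in LJ (horizontal) against response in QJ (vertical), both stressed minus control on the log2(FPKM + 1) scale, 1 point per tested gene, coloured by class, with the dashed line where the responses are equal. The shared genes with unlike sizes (399) lie mostly on the LJ side of that line, and the genes called in LJ and not in QJ (656) lie along the horizontal axis.

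Called responses of the same sign in both varieties were found in 1313 genes, 893 up and 420 down. In 713 of them the responses were like-sized, the 95% interval of the difference lying within -1 and 1. In 399 they were unlike-sized, with a called difference, and 201 were undecided. Another 1000 genes had different responses: 83 had called responses of opposite sign, 261 reached the calling rule in QJ and not in LJ, and 656 reached it in LJ and not in QJ, all of the last 2 classes with a called difference. In 125 genes the difference was called with neither response called.

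**Figure D2:**
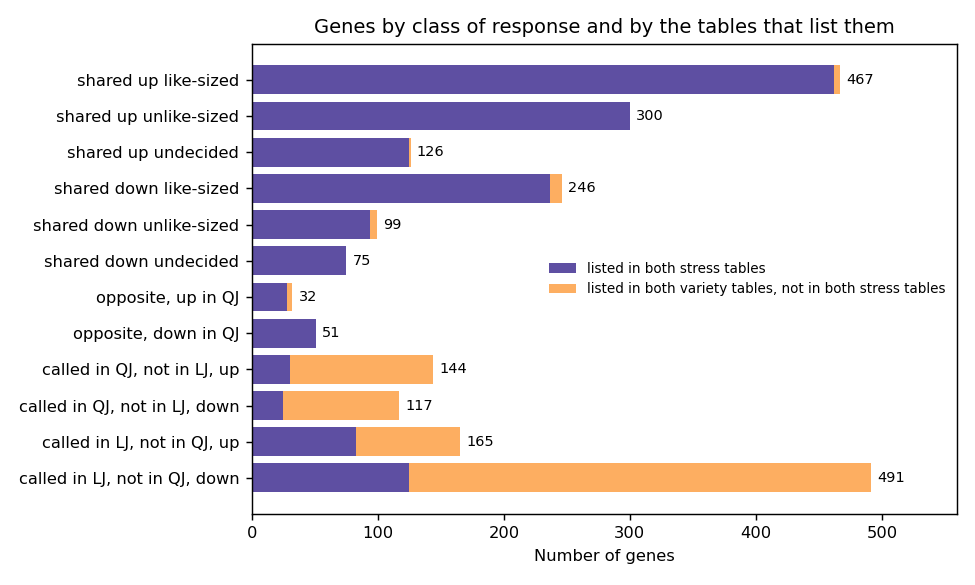
Number of tested genes in each class (horizontal axis), split by the deposited tables that list them. Shared genes came almost wholly from the 2 stress tables, while most of the 491 genes called down in LJ and not in QJ came through the tables that compare the varieties.

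Abscisic acid genes were among the largest shared, like-sized rises. Rab16A (Os11g0454300), a dehydrin induced by abscisic acid, had 656, 600.4 and 638 FPKM in the stressed QJ leaves, against 9.95, 8.58 and 10.8 FPKM in the QJ controls. In LJ, Rab16A had 519.8, 517 and 534 FPKM under stress, against 6.26, 6.47 and 6.16 FPKM in the controls. All 6 stressed libraries lay far above all 6 controls, and the responses of 5.88 in QJ and 6.17 in LJ were like-sized. For Rab16A, the difference of responses was -0.29 (SE 0.0893, adjusted p = 0.0123). OSNCED3 (Os07g0154100), the 9-cis-epoxycarotenoid dioxygenase of abscisic acid synthesis, had 51.3, 52.2 and 55.8 FPKM in the stressed QJ leaves, against 2.45, 2.33 and 2.71 FPKM in the QJ controls. In LJ, OSNCED3 had 174, 178 and 182 FPKM under stress, against 10.1, 11.2 and 11.3 FPKM in the controls. LJ stood higher than QJ in both conditions, and the rise was nearly equal, 3.95 in QJ and 3.91 in LJ, with a 95% interval of the difference of -0.14 to 0.22. OsLEA1 (Os04g0589800), a LEA protein, averaged 41.9 ± 3.24 FPKM in stressed QJ leaves and 0.533 ± 0.221 FPKM in QJ controls, and 68.4 ± 1.28 FPKM in stressed LJ leaves and 2.74 ± 0.773 FPKM in LJ controls. Its responses were 4.81 in QJ and 4.23 in LJ. The difference was 0.58, with a 95% interval of 0.16 to 0.998, just inside the bound of 1. Its QJ controls lay below 1 FPKM, where the log2(FPKM + 1) scale understates a rise.

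Within the list of 33 tested abscisic acid and LEA genes, the QJ response was called up in 25 and down in 0, and the LJ response up in 22 and down in 0. Both rose in 20. For the lists that follow, the shares over all 5170 tested genes are 17.1% more positive in QJ, 12.4% more negative and 17.3% called up in both varieties, and the median difference is 0.21. Called down in both were 8.12%. The QJ response was called up in 24.1% and down in 12.9% of all tested genes, the LJ response in 23.5% and 24.1%. Where a scaling moved either count by over 1.5 times, both are given, more positive and then more negative. The difference was more positive in QJ in 11 (33.3%) and more negative in QJ in 5 (15.2%), and its median was 0.60. The members with the highest and the lowest difference were both LEA genes. OsLEA14 (Os01g0705200) had 42.8, 44.8 and 46.3 FPKM in the stressed QJ leaves, against 1.4, 1.66 and 1.18 FPKM in the QJ controls. In LJ, OsLEA14 had 23.5, 21.4 and 22.9 FPKM under stress, against 10.3, 9.67 and 9.45 FPKM in the controls. The stressed QJ leaves were the highest of the 4 groups and the QJ controls the lowest. For OsLEA14, the difference of responses was 3.12 (SE 0.108, adjusted p = 7.66e-11). OsLEA3-1 (Os05g0542500), a LEA protein widely used as a marker of drought and salt stress, had 238, 213 and 237 FPKM in the stressed QJ leaves, against 7.34, 5.51 and 5.23 FPKM in the QJ controls. In LJ, OsLEA3-1 had 741, 725 and 771 FPKM under stress, against 1.79, 1.47 and 1.28 FPKM in the controls. Here the stressed LJ leaves were highest and the LJ controls lowest. For OsLEA3-1, the difference of responses was -3.17 (SE 0.144, adjusted p = 9.39e-10). The dehydrins RAB16B and RAB16C, with differences of 1.36 and 1.5, and the LEA genes OsLEA18 (2.42) and OsLEA33 (2.08) rose more in QJ, and OsABI5-1 (-1.84), named for the abscisic acid response factor ABI5, was called up in LJ and not in QJ.

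Of 16 tested iron genes 8 were called up in both varieties, against 17.3% of all tested genes. In this list the difference was called more positive in QJ in 6 of 16 tested members (37.5%) and more negative in 0 (0%), with a median of 0.61. YSL2 (Os02g0649900), a transporter of metal-nicotianamine complexes, had 179, 192 and 178 FPKM in the stressed QJ leaves, against 4.79, 4.26 and 4.07 FPKM in the QJ controls. In LJ, YSL2 had 171, 172 and 165 FPKM under stress, against 4.94, 5.56 and 4.87 FPKM in the controls. The stressed groups overlapped in range neither with the controls nor with each other, and the responses, 5.10 in QJ and 4.80 in LJ, were like-sized. OsIRO2 (Os01g0952800), the bHLH factor that switches on phytosiderophore genes under iron deficiency, had 108, 108 and 112 FPKM in the stressed QJ leaves, against 5.99, 5.57 and 5.81 FPKM in the QJ controls. In LJ, OsIRO2 had 93.2, 86 and 88.3 FPKM under stress, against 11.8, 11.4 and 12.7 FPKM in the controls. QJ was above LJ under stress and below it in the controls. For OsIRO2, the difference of responses was 1.23 (SE 0.071, adjusted p = 9.60e-09), but 0.93 after median centring and 0.97 on the authors' scale, under the size of 1. OsIRO3 (Os03g0379300), a repressor of iron-deficiency genes, had 48.9, 49.8 and 51.4 FPKM in the stressed QJ leaves, against 13.8, 14.4 and 11.8 FPKM in the QJ controls. In LJ, OsIRO3 had 18.9, 19.9 and 19.6 FPKM under stress, against 25.9, 25.6 and 25.5 FPKM in the controls. It went up in QJ and slightly down in LJ, with responses of 1.84 in QJ and -0.38 in LJ. For OsIRO3, the difference of responses was 2.22 (SE 0.0888, adjusted p = 2.94e-10). OsMIR, a mitochondrial iron-regulated gene, OsNRAMP1 and OsIRT2, metal transporters, rose in both and more in QJ, with differences of 1.67, 1.26 and 1.79. OsNAS1 (Os03g0307300), a nicotianamine synthase, averaged 5.59 ± 0.0854 FPKM in stressed QJ leaves and 0 (listed at 0 in each library) FPKM in QJ controls, and 6.58 ± 0.445 FPKM in stressed LJ leaves and 0 (listed at 0 in each library) FPKM in LJ controls. Its controls were listed at 0 in both varieties, and its difference was -0.20 (adjusted p = 0.111).

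Chlorophyll breakdown and light harvesting moved in opposite directions in both varieties, with larger median responses in LJ. All 6 tested genes of chlorophyll breakdown and senescence were called up in both, 4 like-sized and 2 larger in LJ, with median responses of 1.74 in QJ and 2.37 in LJ. The difference was called more positive in QJ in 0 (0%) and more negative in 2 (33.3%). The counts became 0 and 1 after quantile normalization. SGR (Os09g0532000), the stay-green protein that starts chlorophyll degradation, had 149.9, 149 and 153 FPKM in the stressed QJ leaves, against 31.6, 33.7 and 31.7 FPKM in the QJ controls. In LJ, SGR had 397, 413 and 392 FPKM under stress, against 39.8, 39.5 and 38.4 FPKM in the controls. The LJ controls lay slightly above the QJ controls, and the stressed LJ leaves were far the highest. For SGR, the difference of responses was -1.13 (SE 0.0472, adjusted p = 4.33e-10), but -0.86 after quantile normalization. EGY3 differed by -1.28, and NOL, a chlorophyll b reductase, and OsPAO, pheophorbide a oxygenase, by -0.71 and -0.55, below the size of 1.

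Light harvesting and the photosystems had 13 tested genes, of which 12 were called down in both varieties, against 8.12% of all tested genes. The difference was called in 8, each more positive in QJ (61.5% of the list, against 17.1% of all tested genes). The counts became 3 and 0 after median centring and 4 and 0 on the authors' scale. The median responses were -1.49 in QJ and -2.43 in LJ. PsbX (Os03g0343900), a small subunit of photosystem II, had 177, 188 and 196 FPKM in the stressed QJ leaves, against 404, 436 and 429 FPKM in the QJ controls. In LJ, PsbX had 70.7, 73.1 and 68.7 FPKM under stress, against 429, 416 and 415 FPKM in the controls. The 2 control groups overlapped, and the stressed LJ leaves were lowest. For PsbX, the difference of responses was 1.38 (SE 0.0566, adjusted p = 3.75e-10). CAB1R (Os09g0346500), a chlorophyll a/b-binding protein, averaged 213 ± 10.9 FPKM in stressed QJ leaves and 712 ± 6.9 FPKM in QJ controls, and 78.1 ± 1.29 FPKM in stressed LJ leaves and 672 ± 16 FPKM in LJ controls. Its difference was 1.35. PsbR (Os07g0147500), another photosystem II protein, averaged 718 ± 7.02 FPKM in stressed QJ leaves and 3593 ± 58.8 FPKM in QJ controls, and 344 ± 11.7 FPKM in stressed LJ leaves and 1083 ± 19.5 FPKM in LJ controls. PsbR was the member that fell further in QJ, with responses of -2.32 in QJ and -1.65 in LJ and a difference under the size of 1.

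Other shared genes fell or rose by nearly the same amount. OsGSTU4 (Os10g0528300), a tau-class glutathione S-transferase, had 11.9, 13.4 and 11.8 FPKM in the stressed QJ leaves, against 57.3, 57.3 and 63 FPKM in the QJ controls. In LJ, OsGSTU4 had 15.1, 17.1 and 17.7 FPKM under stress, against 77.8, 82 and 75.5 FPKM in the controls. The falls could not be told apart, -2.17 in QJ and -2.17 in LJ, with a 95% interval of the difference of -0.21 to 0.22. GLW7 (Os07g0505200), an SBP-family transcription factor of grain size, averaged 0.65 ± 0.538 FPKM in stressed QJ leaves and 6.23 ± 0.284 FPKM in QJ controls, and 3.26 ± 0.657 FPKM in stressed LJ leaves and 19.9 ± 0.674 FPKM in LJ controls. GLW7 counted as like-sized, with responses of -2.18 in QJ and -2.31 in LJ. OsCDT4 and osppdka, a pyruvate orthophosphate dikinase gene, also had like-sized falls, with differences of -0.19 and 0.06. The germin-like gene GLP8-3 had like-sized rises, with responses of 4.33 in QJ and 4.28 in LJ, as had the sugar transporter OsSWEET6b, 1.70 in QJ and 1.72 in LJ.

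**Figure D3:**
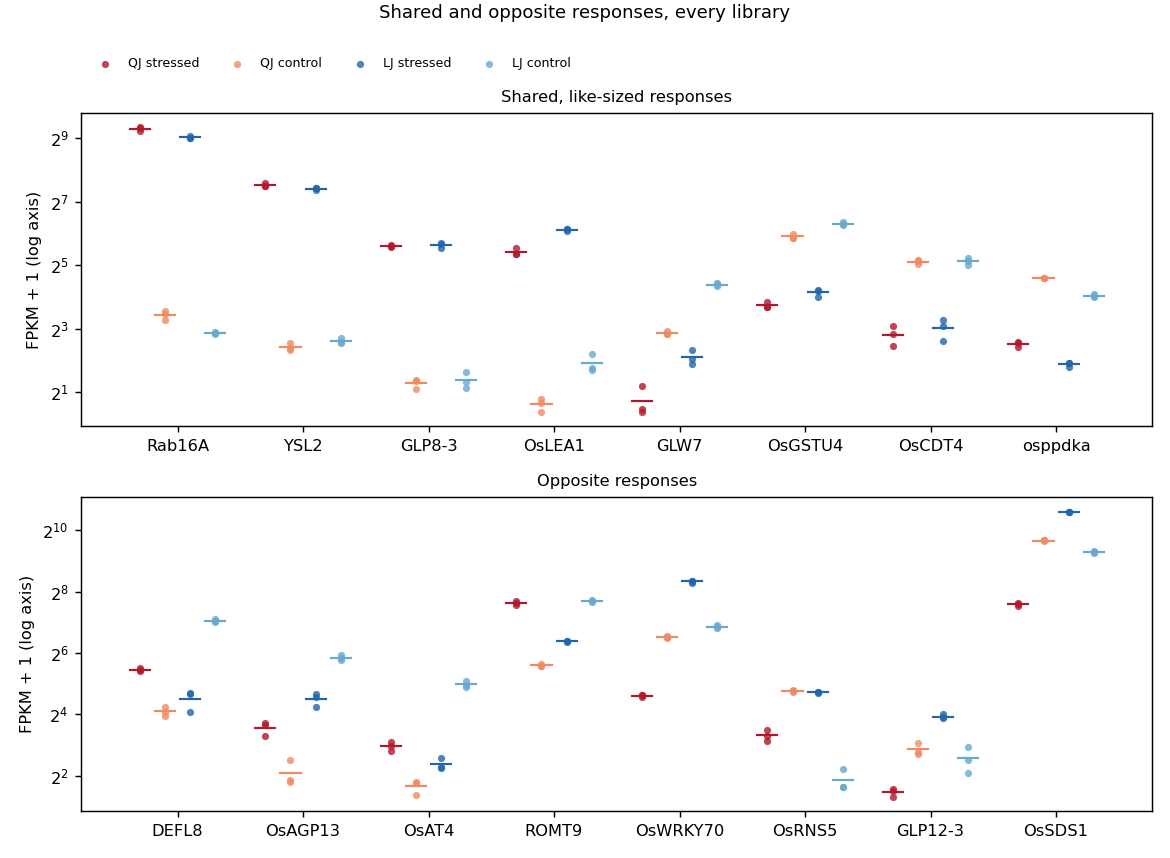
FPKM + 1 (log axis) of 8 genes with shared, like-sized responses (top) and of 8 genes with opposite responses (bottom), 1 point per library and a line at the mean of each group of 3. Rab16A and YSL2 rise alike in both varieties, while OsWRKY70 and OsSDS1 fall in QJ and rise in LJ.

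The larger of 2 shared responses was counted by variety. Among the 893 shared rises the response was larger in LJ in 557, and among the 420 shared falls in 272. Of the unlike-sized genes it was larger in LJ in 237 of 300 rises and in 70 of 99 falls. After median centring, quantile normalization or the scaling of the authors' fold changes, 67.2% to 70.1% of the shared rises and 58% to 59.8% of the shared falls were larger in LJ, and of the unlike-sized falls 51.4% to 60.0%. No test was run on these shares.

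OsRMC (Os04g0659300), a secreted cysteine-rich protein related to receptor-like kinases that is known to act in root growth and salt response, had 317, 307 and 329 FPKM in the stressed QJ leaves, against 76.5, 74.4 and 75.1 FPKM in the QJ controls. In LJ, OsRMC had 5067, 5146 and 4962 FPKM under stress, against 15.1, 16.2 and 12.2 FPKM in the controls. QJ controls stood above LJ controls, and stressed LJ leaves far above stressed QJ leaves. For OsRMC, the difference of responses was -6.30 (SE 0.0998, adjusted p = 7.07e-14). OsOxO3 (Os03g0693900), an oxalate oxidase, had 3.26, 3.94 and 4.16 FPKM in the stressed QJ leaves, against 0, 0 and 0 FPKM in the QJ controls. In LJ, OsOxO3 had 408, 419 and 415 FPKM under stress, against 2.42, 2.89 and 2.35 FPKM in the controls. It was listed at 0 in each QJ control, and the stressed LJ leaves stood far above the other 3 groups. For OsOxO3, the difference of responses was -4.62 (SE 0.119, adjusted p = 4.52e-12). Cht2* (Os05g0399300), a chitinase, had 13.1, 14.2 and 15.4 FPKM in the stressed QJ leaves, against 3.84, 4.6 and 4.32 FPKM in the QJ controls. In LJ, Cht2* had 224, 228 and 228 FPKM under stress, against 1.38, 1.13 and 1.28 FPKM in the controls. The order of the groups was that of OsRMC. For Cht2*, the difference of responses was -5.12 (SE 0.106, adjusted p = 6.28e-13). OsCHX15 (Os12g0616500), of the cation/proton exchangers, averaged 2.92 ± 0.0964 FPKM in stressed QJ leaves and 0.82 ± 0.122 FPKM in QJ controls, and 94 ± 2.83 FPKM in stressed LJ leaves and 0.62 ± 0.182 FPKM in LJ controls. It rose in both varieties, by 1.11 in QJ and 5.88 in LJ on the log2 scale.

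Pathogenesis-related genes (chitinases, glucanases and PR proteins) mostly rose, and in this list the difference was called more positive in QJ in 4 of 28 tested members (14.3%) and more negative in 10 (35.7%), with a median of -0.29. The counts became 2 and 12 after median centring. Of the 28, 17 were called up in both, and the median responses were 1.51 in QJ and 2.35 in LJ. OsPR4 (Os11g0592200), a PR protein of the chitin-binding kind, averaged 179.6 ± 5.51 FPKM in stressed QJ leaves and 37.2 ± 3.19 FPKM in QJ controls, and 953 ± 11.6 FPKM in stressed LJ leaves and 20.2 ± 2.32 FPKM in LJ controls. Its difference was -3.26. Of the 4 members more positive in QJ, the one with the highest difference was a defence gene first known from bacterial infection. Rir1b (Os10g0569800) had 96.6, 87.2 and 105 FPKM in the stressed QJ leaves, against 0.23, 0.23 and 0.47 FPKM in the QJ controls. In LJ, Rir1b had 297, 306 and 308 FPKM under stress, against 93.2, 92.5 and 94.9 FPKM in the controls. The LJ controls lay within the range of the stressed QJ leaves, the stressed LJ leaves were highest, and the QJ controls were near 0. For Rir1b, the difference of responses was 4.53 (SE 0.105, adjusted p = 1.82e-12).

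Lists of secondary metabolism had differences called on both sides. CYP76M2 (Os08g0508000), a cytochrome P450 of a diterpenoid family, had 18.5, 18 and 18.7 FPKM in the stressed QJ leaves, against 1.29, 0.96 and 1.44 FPKM in the QJ controls. In LJ, CYP76M2 had 283, 278 and 281 FPKM under stress, against 0.64, 0.47 and 0.4 FPKM in the controls. The controls were low in both varieties, and the stressed LJ leaves stood far above the stressed QJ leaves. For CYP76M2, the difference of responses was -4.42 (SE 0.12, adjusted p = 7.21e-12). OsLAC29 (Os12g0258700), a laccase, averaged 18.4 ± 1.24 FPKM in stressed QJ leaves and 1.15 ± 0.131 FPKM in QJ controls, and 467 ± 3.61 FPKM in stressed LJ leaves and 2.18 ± 0.0451 FPKM in LJ controls. Its difference was -4.03, and that of OsLAC28 -3.70. For the laccase and phenylpropanoid list, the difference was called more positive in QJ in 8 of 29 tested members (27.6%) and more negative in 7 (24.1%), with a median of 0.61. The 8 positive members included C4H1 and OsCAD6, of the monolignol pathway, which were called up in QJ and not in LJ, with responses of 2.30 in QJ and 0.60 in LJ and of 2.12 in QJ and 0.40 in LJ. Among diterpenoid phytoalexin genes, the difference was called more positive in QJ in 2 of 18 tested members (11.1%) and more negative in 2 (11.1%), with a median of 0.34. The counts became 1 and 3 after median centring and 1 and 2 after quantile normalization. The synthase gene OsCPS4 rose more in QJ (1.39).

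Of 26 tested phosphate genes 14 were called up in both varieties, against 17.3% of all tested genes. In this list the difference was called more positive in QJ in 3 of 26 tested members (11.5%) and more negative in 6 (23.1%), with a median of -0.24. PHR3 (Os02g0139000), named for the phosphate starvation response factors, averaged 55.8 ± 2.83 FPKM in stressed QJ leaves and 16.3 ± 0.28 FPKM in QJ controls, and 129.6 ± 2.72 FPKM in stressed LJ leaves and 14.6 ± 0.966 FPKM in LJ controls. Its difference was -1.36, and that of OsSPX-MFS1, a vacuolar phosphate transporter, -1.36. OsPAP20b and OsPAP21b, purple acid phosphatases, differed by -2.42 and -2.01, and OsSPX6, of the SPX phosphate sensors, by 1.14, which fell under 1 under all 3 scalings. In the nitrogen and amino acid list, the difference was called more positive in QJ in 4 of 23 tested members (17.4%) and more negative in 6 (26.1%), with a median of 0.12. The counts became 1 and 6 after median centring, 2 and 6 after quantile normalization and 1 and 6 on the authors' scale. The sign of that median turned under median centring and under the authors' scaling. ASN1 (Os03g0291500), an asparagine synthetase, had 84.8, 87.4 and 84.8 FPKM in the stressed QJ leaves, against 158, 158 and 157 FPKM in the QJ controls. In LJ, ASN1 had 153, 149 and 150.2 FPKM under stress, against 42.5, 43.1 and 40.8 FPKM in the controls. It was higher in the QJ controls than under stress and higher in stressed LJ leaves than in their controls. For ASN1, the difference of responses was -2.69 (SE 0.0409, adjusted p = 5.49e-14). The ammonium transporters OsAMT2 and AMT3 differed by -1.27 and -1.25, and the nitrate transporter OsNRT1.5B by -0.11 (adjusted p = 0.263), with responses of 3.93 in QJ and 4.04 in LJ.

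The NAC factors, which include regulators of leaf senescence, had calls on 1 side, and the difference was called more positive in QJ in 0 of 24 tested members (0%) and more negative in 6 (25%), with a median of -0.21. ONAC016 (Os01g0104200) averaged 4.36 ± 0.361 FPKM in stressed QJ leaves and 0.277 ± 0.0577 FPKM in QJ controls, and 49.2 ± 1.73 FPKM in stressed LJ leaves and 0.18 ± 0.0265 FPKM in LJ controls. Its difference was -3.34. The highest difference in the family was 0.89, for ONAC121. Among WRKY factors, which act in defence, the difference was called more positive in QJ in 3 of 33 tested members (9.09%) and more negative in 7 (21.2%), with a median of -0.48. OsWRKY23 (Os01g0734000) averaged 4.02 ± 0.874 FPKM in stressed QJ leaves and 0.617 ± 0.146 FPKM in QJ controls, and 101 ± 1.96 FPKM in stressed LJ leaves and 0.45 ± 0.0361 FPKM in LJ controls. The difference was -4.51. At the other end, OsWRKY113 was listed at 0 in all QJ libraries and differed by 2.02.

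The largest class of unlike genes comprised those called in LJ and not in QJ, 165 up and 491 down. Of the 491, 275 had a mean under 1 FPKM in both QJ groups, as did 41 of the 165. Of all 883 genes more positive in QJ, 302 were of this kind and 559 had at least 1 FPKM in a group of each variety. Of the 641 more negative in QJ, 41 were of this kind and 582 had that level in both varieties.

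OSC6 (Os11g0582500), a lipid transfer protein of the anther tapetum, had 0, 0 and 0 FPKM in the stressed QJ leaves, against 0.11, 0 and 0 FPKM in the QJ controls. In LJ, OSC6 had 0.45, 0.45 and 0.89 FPKM under stress, against 150.1, 157 and 155 FPKM in the controls. The LJ controls alone had the transcript at more than 1 FPKM. For OSC6, the difference of responses was 6.56 (SE 0.15, adjusted p = 1.55e-12). Osc4 (Os08g0546300), another anther gene, had 1.87, 2.13 and 1.63 FPKM in the stressed QJ leaves, against 0.44, 0.45 and 0 FPKM in the QJ controls. In LJ, Osc4 had 5.26, 5.03 and 3.15 FPKM under stress, against 94, 95.5 and 96.9 FPKM in the controls. LJ fell and QJ rose slightly at a low level, so that Osc4 counts among the opposite genes. For Osc4, the difference of responses was 5.33 (SE 0.238, adjusted p = 8.50e-10). OsMADS7 (Os08g0531700), a MADS-box gene of floral organ identity, averaged 0.0267 ± 0.0462 FPKM in stressed QJ leaves and 0 (listed at 0 in each library) FPKM in QJ controls, and 0.967 ± 0.351 FPKM in stressed LJ leaves and 38.5 ± 1.69 FPKM in LJ controls. Its difference was 4.38, and those of OsMADS2 and the anther gene WDA1 were 3.74 and 4.08. Of 15 tested floral and anther genes, 12 (80.0%) had a difference called more positive in QJ and 0 more negative, and the median responses were 0.06 in QJ and -2.74 in LJ. The counts became 12 and 1 after median centring. OSC6, OsMADS7 and WDA1 averaged over 1 FPKM in the LJ controls alone, as did the floral genes DL and MADS17. They passed the filter through that group, so their differences could only be positive. The sign of such members was fixed by how they entered the test, so the count is a description only.

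All samples are labelled leaf. Markers of meristem and floral organs (8 genes) summed to 41.9 to 45.8 FPKM in stressed QJ leaves and 37.6 to 44.6 FPKM in QJ controls, of which MADS14, which leaves also express, was nearly all. They summed to 163 to 168 FPKM in stressed LJ leaves and 316 to 332 FPKM in LJ controls, where MADS14 averaged 154 FPKM under stress and 204 FPKM in the controls. Anther and tapetum markers (5 genes) summed to 2.46 to 2.65 and 1.17 to 1.95 FPKM in those QJ groups, and to 7.99 to 11.0 FPKM in stressed LJ leaves and 269.7 to 276 FPKM in LJ controls. OSC6 and Osc4 averaged 153.9 and 95.5 FPKM in LJ controls, most of that sum, and WDA1 21.4 FPKM. EAT1 was higher in stressed LJ leaves (3.88 FPKM) than in LJ controls (1.42 FPKM). Udt1 averaged 1.30 FPKM in QJ controls and 1.88 FPKM in LJ controls. OSC6 was listed at 0 in every stressed QJ library, and OSH15 and OsMADS7 in every QJ control. Leaf mesophyll markers (9 genes) summed to 2046 to 2082 FPKM in stressed QJ leaves and 7457 to 7757 FPKM in QJ controls, and to 848 to 855 FPKM in stressed LJ leaves and 5595 to 5623 FPKM in LJ controls. The largest, RBCS (Os12g0274700), averaged 3727 FPKM in QJ controls and 1284 FPKM in LJ controls. CAB2R, Lhcb1.1, LHCB and RbcS1 were higher in LJ controls than in QJ controls, and the other members lower. RbcS1, at a low level, rose under stress in both varieties, and the other members fell in both. Of the markers listed for root, only 2 nicotianamine synthase genes had values. They summed to 10.0 to 11.6 FPKM in stressed QJ leaves and 0 to 0.06 FPKM in QJ controls, and to 10.4 to 11.2 FPKM in stressed LJ leaves and 0.06 to 0.23 FPKM in LJ controls. OsNAS1, 1 of the 2, was described above with the iron genes, so these sums cannot tell root transcripts from an iron response. The part of the floral, anther and wall transcripts of the LJ controls in the other differences was not tested. In bulk leaves, fewer cells of a type and less RNA per cell cannot be told apart.

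Secondary wall genes, active where stems, veins and fibres thicken, fell in LJ, and from far lower levels in QJ. Of 32 tested cellulose synthase, COBRA-like and fasciclin-like genes, 20 had a difference called more positive in QJ (62.5%) and 0 more negative. Of the 32, 6 were called down in QJ and 24 in LJ, against 12.9% and 24.1% of all tested genes. QJ levels were low, and the log2(FPKM + 1) scale shrinks falls near 0, so these counts do not compare proportional falls. OsFLA15 averaged 0.0533 FPKM in stressed QJ leaves and 2.19 FPKM in QJ controls. In LJ it averaged 2.07 FPKM under stress and 13.4 FPKM in controls. As a ratio OsFLA15 fell further in QJ, while OsCesA4, below, fell further in LJ. OsFLA9 (Os05g0163300), a fasciclin-like arabinogalactan protein, had 0, 0 and 0 FPKM in the stressed QJ leaves, against 0.36, 0.44 and 0.93 FPKM in the QJ controls. In LJ, OsFLA9 had 0.76, 0.96 and 0.71 FPKM under stress, against 66.5, 69.2 and 66.4 FPKM in the controls. It was listed at 0 in stressed QJ leaves and stood far higher in LJ controls than in the other groups. Only the LJ controls averaged over 1 FPKM, so the difference of OsFLA9 could only be positive. The same held at least for OsFLA5 and OsFLA26, so the count of called differences in this list is a description only. For OsFLA9, the difference of responses was 4.60 (SE 0.17, adjusted p = 1.40e-10). OsCesA4 (Os01g0750300), a cellulose synthase of the secondary wall, averaged 1.95 ± 0.165 FPKM in stressed QJ leaves and 4.8 ± 0.172 FPKM in QJ controls, and 5.77 ± 0.845 FPKM in stressed LJ leaves and 97.4 ± 5.39 FPKM in LJ controls. Its difference was 2.89, and those of CESA7 and BC1, of the same walls, were 2.48 and 3.29. The secondary wall markers (19 genes) summed to 14.5 to 15.99 FPKM in stressed QJ leaves and 45.2 to 47.2 FPKM in QJ controls, and to 71.7 to 74.9 FPKM in stressed LJ leaves and 647 to 667 FPKM in LJ controls.

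Class III peroxidases, secreted enzymes that cross-link walls and use hydrogen peroxide, had calls on both sides: the difference was called more positive in QJ in 17 of 45 tested members (37.8%) and more negative in 4 (8.89%), with a median of 0.63. Of the 45, 10 were called down in QJ and 23 in LJ, against 12.9% and 24.1% of all tested genes. Called up were 4 in QJ and 4 in LJ, against 24.1% and 23.5%. prx39 (Os03g0234900) had 0, 0 and 0 FPKM in the stressed QJ leaves, against 0.06, 0 and 0.07 FPKM in the QJ controls. In LJ, prx39 had 0.99, 0.65 and 0.53 FPKM under stress, against 52.7, 53.7 and 52 FPKM in the controls. As with Pox1(Px, another peroxidase, only the LJ controls averaged over 1 FPKM, so its difference could only be positive. For prx39, the difference of responses was 4.91 (SE 0.138, adjusted p = 9.95e-12). Pox1(Px differed by 5.45 and prx71 by 3.23, while prx37 differed by -2.59. For expansins and xyloglucan-modifying enzymes, the difference was called more positive in QJ in 9 of 24 tested members (37.5%) and more negative in 1 (4.17%), with a median of 0.53. The counts became 6 and 3 after median centring, 8 and 2 after quantile normalization and 9 and 2 on the authors' scale. Of 9 genes of cell division, 4 were more positive in QJ and 0 more negative, among them CycU2 (2.01). The counts became 2 and 0 after median centring and 2 and 0 after quantile normalization.

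Sugar metabolism held contrasts between genes that both varieties expressed. SUS1 (Os03g0401300), a sucrose synthase, had 17.6, 17.3 and 17.4 FPKM in the stressed QJ leaves, against 15.1, 17.4 and 19.4 FPKM in the QJ controls. In LJ, SUS1 had 49, 55.8 and 52.4 FPKM under stress, against 513, 520.0 and 502 FPKM in the controls. The QJ groups overlapped, while the stressed LJ leaves lay far below the LJ controls. For SUS1, the difference of responses was 3.28 (SE 0.101, adjusted p = 2.42e-11). OSINV2 (Os04g0535600), a vacuolar invertase, had 19.7, 17.5 and 20.0 FPKM in the stressed QJ leaves, against 24.9, 23.6 and 24 FPKM in the QJ controls. In LJ, OSINV2 had 96.2, 96.5 and 102 FPKM under stress, against 10.3, 9.34 and 9.8 FPKM in the controls. It was slightly lower under stress in QJ and far higher under stress in LJ. For OSINV2, the difference of responses was -3.53 (SE 0.0811, adjusted p = 1.64e-12). OSINV3 (Os02g0106100), another vacuolar invertase, averaged 6.21 ± 0.465 FPKM in stressed QJ leaves and 0.817 ± 0.117 FPKM in QJ controls, and 2.41 ± 0.137 FPKM in stressed LJ leaves and 5.66 ± 0.242 FPKM in LJ controls. Its difference, 2.95, had the sign opposite to that of OSINV2. For the sugar and trehalose list, the difference was called more positive in QJ in 8 of 23 tested members (34.8%) and more negative in 3 (13%), with a median of 0.40. Of the SWEET sugar transporters tested, OsSWEET15 (1.46) and OsSWEET3a (1.69) had called differences, and OsSWEET6b, OsSWEET6a, OsSWEET1a and OsSWEET1b had none.

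Among genes called up in LJ and not in QJ, Sci1 (Os12g0437800) had 63.9, 71 and 60.2 FPKM in the stressed QJ leaves, against 30.2, 37.6 and 31.4 FPKM in the QJ controls. In LJ, Sci1 had 1833, 1800.0 and 1811 FPKM under stress, against 11.1, 15.8 and 15.4 FPKM in the controls. It rose in both varieties, but its QJ response of 0.96 just missed the size of 1. For Sci1, the difference of responses was -5.97 (SE 0.163, adjusted p = 7.76e-12). OsUCL35 (Os11g0428800), of the uclacyanin-like blue copper proteins, had 0.67, 0.94 and 0.66 FPKM in the stressed QJ leaves, against 0, 0 and 0 FPKM in the QJ controls. In LJ, OsUCL35 had 57.5, 62 and 64.5 FPKM under stress, against 0, 0 and 0 FPKM in the controls. Every control of both varieties was listed at 0. Only the stressed LJ leaves averaged over 1 FPKM, so the difference of OsUCL35 could only be negative. For OsUCL35, the difference of responses was -5.15 (SE 0.122, adjusted p = 2.14e-12). OsCKX1 (Os01g0187600), a cytokinin oxidase, averaged 0.91 ± 0.0917 FPKM in stressed QJ leaves and 0.0333 ± 0.0351 FPKM in QJ controls, and 10.5 ± 0.972 FPKM in stressed LJ leaves and 0.04 ± 0.0173 FPKM in LJ controls. Its difference was -2.58. OsCKX1 too averaged over 1 FPKM in stressed LJ leaves alone, so its difference could only be negative.

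**Figure D4:**
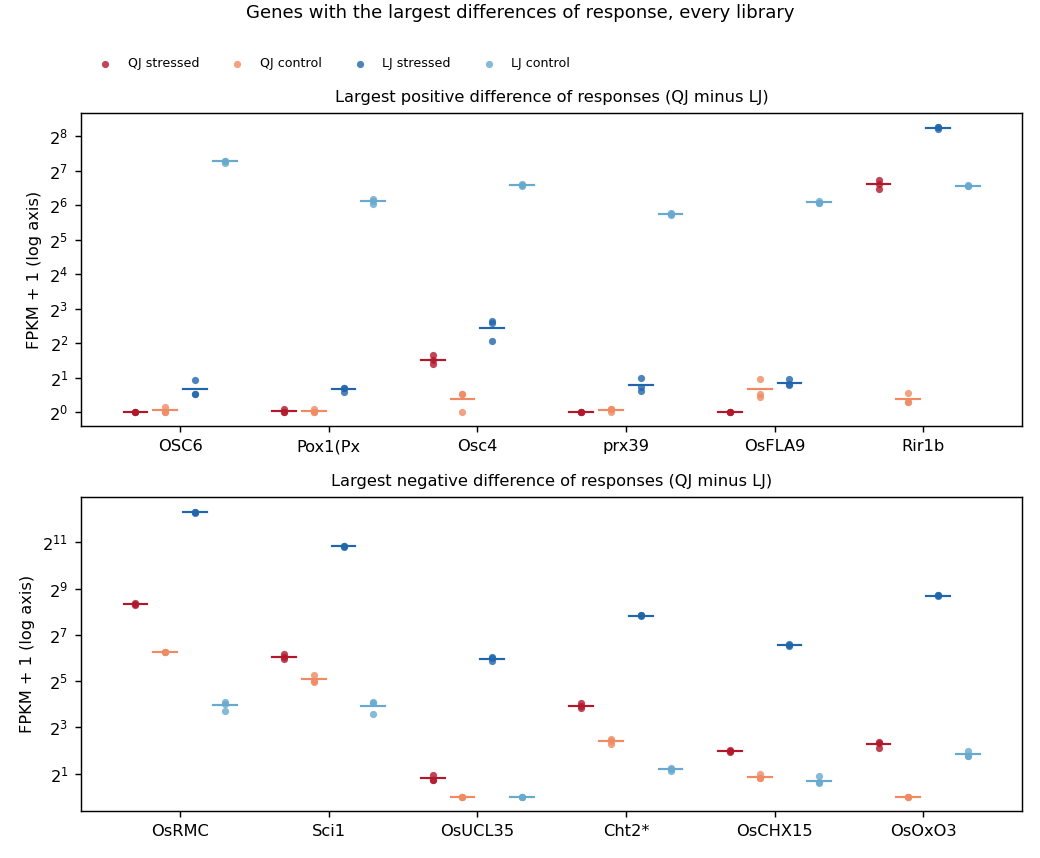
FPKM + 1 (log axis) of the 6 named genes with the largest positive and the 6 with the largest negative difference of responses, 1 point per library and a line at the mean of each group of 3. In 5 of the 6 positive genes the LJ controls stand far above the other groups, and in all 6 negative genes the stressed LJ leaves do.

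Genes called in QJ and not in LJ numbered 144 up and 117 down. OsDREB1G (Os02g0677300), of the DREB1 factors known for the cold response, had 6.12, 6.58 and 6.53 FPKM in the stressed QJ leaves, against 64.2, 69.5 and 69.9 FPKM in the QJ controls. In LJ, OsDREB1G had 103, 112 and 106 FPKM under stress, against 185, 189 and 185 FPKM in the controls. Both varieties fell, QJ further, and the LJ response of -0.80 missed the size of 1. For OsDREB1G, the difference of responses was -2.42 (SE 0.0628, adjusted p = 4.89e-12). OsTPP1 (Os02g0661100), a trehalose-6-phosphate phosphatase induced by cold, had 11.6, 9.67 and 11.4 FPKM in the stressed QJ leaves, against 255, 253 and 251 FPKM in the QJ controls. In LJ, OsTPP1 had 239, 241 and 247 FPKM under stress, against 639, 637 and 639 FPKM in the controls. Both varieties fell by at least 1, so OsTPP1 is a shared fall of unlike size, with the stressed QJ leaves lowest. For OsTPP1, the difference of responses was -3.03 (SE 0.0709, adjusted p = 1.88e-12). OsDREB1A (Os09g0522200) had 45.8, 47.2 and 47.9 FPKM in the stressed QJ leaves, against 323, 339 and 327 FPKM in the QJ controls. In LJ, OsDREB1A had 170.3, 175 and 173 FPKM under stress, against 544, 536 and 532 FPKM in the controls. It too fell in both, with the groups in the order of OsTPP1. For OsDREB1A, the difference of responses was -1.15 (SE 0.0364, adjusted p = 3.09e-11). OsERF#133, of the same family, fell by 5.79 in QJ and 1.44 in LJ and differed by -4.35, while OsDREB1C, with responses of -0.09 in QJ and -0.89 in LJ, differed by 0.80. Over the AP2/ERF and DREB list, the difference was called more positive in QJ in 6 of 43 tested members (14%) and more negative in 9 (20.9%), with a median of -0.14, and the QJ response was called up in 11 and down in 12, and the LJ response up in 9 and down in 12. The counts of differences became 5 and 14 after median centring.

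Of 23 tested jasmonate genes 5 were called up and 5 down in QJ, against 24.1% and 12.9% of all tested genes. In LJ 5 were called up and 2 down, against 23.5% and 24.1%. OsJAZ (Os10g0391400), a JAZ repressor of jasmonate signalling, had 24.2, 21.9 and 24.4 FPKM in the stressed QJ leaves, against 220.3, 215 and 217 FPKM in the QJ controls. In LJ, OsJAZ had 285, 300.1 and 277 FPKM under stress, against 530.4, 558 and 539 FPKM in the controls. The stressed QJ leaves were the lowest group by far, and the LJ response of -0.91 missed the size of 1. For OsJAZ, the difference of responses was -2.24 (SE 0.0586, adjusted p = 5.16e-12). TIFY11A (Os03g0180800), of the same repressor family, averaged 36.1 ± 0.323 FPKM in stressed QJ leaves and 153 ± 4.87 FPKM in QJ controls, and 368 ± 5.01 FPKM in stressed LJ leaves and 370.0 ± 5.36 FPKM in LJ controls. The LJ groups were level, and the difference was -2.05. OsJAZ4 differed by -2.19, and OsJAZ11 by 1.15, which fell under 1 after median centring and on the authors' scale. In the jasmonate list, the difference was called more positive in QJ in 1 of 23 tested members (4.35%) and more negative in 4 (17.4%), with a median of -0.20. The counts became 0 and 5 after median centring and 0 and 4 on the authors' scale.

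OsbHLH120 (Os09g0455300), of the bHLH factors, averaged 121 ± 6.89 FPKM in stressed QJ leaves and 11.7 ± 0.576 FPKM in QJ controls, and 23.9 ± 0.937 FPKM in stressed LJ leaves and 12.8 ± 1.46 FPKM in LJ controls. It was called up in QJ and not in LJ, and the difference was 2.40. In the bHLH and MYB list, the difference was called more positive in QJ in 8 of 39 tested members (20.5%) and more negative in 3 (7.69%), with a median of 0.43. The counts became 5 and 4 after median centring and 5 and 3 on the authors' scale. LHY, a clock gene of the MYB kind, rose in both and more in LJ, with a difference of -1.36. The hour of sampling is not given in the sources used here.

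Opposite called responses were found in 83 genes, 32 up in QJ and down in LJ, and 51 down in QJ and up in LJ. Most had no gene name, 27 had one. OsWRKY70 (Os05g0474800), a WRKY factor, had 23.6, 22.7 and 23.7 FPKM in the stressed QJ leaves, against 91.3, 88.1 and 92.1 FPKM in the QJ controls. In LJ, OsWRKY70 had 324, 314 and 328 FPKM under stress, against 114, 120.1 and 111 FPKM in the controls. The LJ controls lay somewhat above the QJ controls, and stress moved the varieties in opposite directions. For OsWRKY70, the difference of responses was -3.39 (SE 0.0501, adjusted p = 4.60e-14). OsSDS1 (Os01g0864500) had 196, 183 and 195 FPKM in the stressed QJ leaves, against 819, 800.2 and 814 FPKM in the QJ controls. In LJ, OsSDS1 had 1542, 1567 and 1567 FPKM under stress, against 624, 642 and 611 FPKM in the controls. The stressed QJ leaves were the lowest group and the stressed LJ leaves the highest. For OsSDS1, the difference of responses was -3.39 (SE 0.037, adjusted p = 3.73e-15). OsSAUR17 (Os03g0660500), a small auxin-up RNA gene, had 49.9, 42.5 and 53 FPKM in the stressed QJ leaves, against 222, 219.8 and 209.5 FPKM in the QJ controls. In LJ, OsSAUR17 had 239, 252 and 232 FPKM under stress, against 101, 92.7 and 97.5 FPKM in the controls. The same order held. For OsSAUR17, the difference of responses was -3.45 (SE 0.0943, adjusted p = 7.79e-12).

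OsRNS5 (Os09g0538000), a ribonuclease of the T2 family, had 8.77, 7.83 and 10.3 FPKM in the stressed QJ leaves, against 26.9, 26.4 and 25.6 FPKM in the QJ controls. In LJ, OsRNS5 had 25.5, 24.9 and 25.2 FPKM under stress, against 3.59, 2.12 and 2.07 FPKM in the controls. The QJ controls and the stressed LJ leaves were close. For OsRNS5, the difference of responses was -4.35 (SE 0.191, adjusted p = 7.20e-10). RNS4, with a neighbouring gene number, differed by -3.52, with responses of -1.29 in QJ and 2.24 in LJ. OsWRKY69 differed by -4.10, DERF12, an ERF factor, by -2.58, the copper transporter COPT1 by -2.95 and the receptor-like kinase OsLysM-RLK1 by -2.13. The germin-like gene GLP12-3 differed by -2.79.

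In the other direction, ROMT9 (Os08g0157500), an O-methyltransferase, had 197, 189 and 209 FPKM in the stressed QJ leaves, against 47, 46.2 and 48.7 FPKM in the QJ controls. In LJ, ROMT9 had 83.5, 83.3 and 81.5 FPKM under stress, against 205, 209 and 201 FPKM in the controls. The LJ controls and the stressed QJ leaves were nearly level, and the other 2 groups lay below. For ROMT9, the difference of responses was 3.34 (SE 0.0512, adjusted p = 5.62e-14). DEFL8 (Os03g0130300), of the defensin-like peptides, had 41.1, 42.6 and 44.9 FPKM in the stressed QJ leaves, against 14.6, 16 and 17.8 FPKM in the QJ controls. In LJ, DEFL8 had 15.8, 25.1 and 24.2 FPKM under stress, against 128, 131 and 138 FPKM in the controls. It rose in QJ and fell in LJ, where the controls were highest. For DEFL8, the difference of responses was 3.94 (SE 0.189, adjusted p = 1.63e-09). OsAT4 (Os01g0291500), a BAHD acyltransferase, averaged 6.79 ± 0.81 FPKM in stressed QJ leaves and 2.13 ± 0.47 FPKM in QJ controls, and 4.18 ± 0.685 FPKM in stressed LJ leaves and 30.5 ± 1.88 FPKM in LJ controls. Its difference was 3.93, and that of OsAGP13 2.85. OsGA2ox9 (Os02g0630300), a gibberellin 2-oxidase, which inactivates the hormone, had 16.5, 15.2 and 16.1 FPKM in the stressed QJ leaves, against 7.44, 6.95 and 7.13 FPKM in the QJ controls. In LJ, OsGA2ox9 had 6.81, 6.2 and 6.97 FPKM under stress, against 14.8, 16.3 and 16.8 FPKM in the controls. The stressed QJ leaves lay within the range of the LJ controls, and the other 2 groups lay below. For OsGA2ox9, the difference of responses was 2.20 (SE 0.0973, adjusted p = 7.62e-10).

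A difference of responses can lie in the controls, in the stressed leaves or in both, because it equals the QJ minus LJ difference under stress less that in the controls. Of the 1524 called genes, 243 differed by under 0.5 between the controls and by at least 1 between the stressed leaves, 49 more positive and 194 more negative in QJ. The converse held for 190, of which 156 were more positive and 34 more negative in QJ. The other 1091 met neither rule. SGR, with controls of 32.3 ± 1.15 FPKM in QJ and 39.2 ± 0.758 FPKM in LJ, and OsUCL35, with controls listed at 0, belong to the genes whose varieties part under stress. The sign for OsUCL35 was fixed by how it entered the test, so its place here is a description only.

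Among ion transporters, the difference was called more positive in QJ in 3 of 16 tested members (18.8%) and more negative in 4 (25%), with a median of 0.37. The counts became 1 and 5 after median centring. NHX1 (Os07g0666900), the vacuolar sodium/proton antiporter, had 16.7, 14.6 and 17.1 FPKM in the stressed QJ leaves, against 4.48, 4.51 and 4.99 FPKM in the QJ controls. In LJ, NHX1 had 36.1, 38 and 38.4 FPKM under stress, against 5.3, 5.17 and 5.68 FPKM in the controls. The LJ controls lay slightly above the QJ controls, and LJ rose further. For NHX1, the difference of responses was -0.999 (SE 0.101, adjusted p = 2.19e-06). The size fell just short of 1, so the difference was not called, but it was called after median centring (-1.30), quantile normalization (-1.12) or on the authors' scale (-1.25). OsHAK24, of the potassium transporters, rose in both and differed by -3.12, and OsHAK4 by 2.17. SKC1 (Os01g0307500), the sodium transporter that clears the xylem, averaged 0.03 ± 0.03 FPKM in stressed QJ leaves and 0.17 ± 0.0458 FPKM in QJ controls, and 0.23 ± 0.121 FPKM in stressed LJ leaves and 2.04 ± 0.145 FPKM in LJ controls. SKC1 was below 1 FPKM in 3 groups, and its difference was 1.13, which fell under 1 after median centring (0.83) and quantile normalization (0.89). It averaged over 1 FPKM in the LJ controls alone, so its difference could only be positive. The HKT genes hkt7 and OsHKT9 differed by 1.16 and 0.07 (adjusted p = 0.743), and hkt7 fell under 1 under all 3 scalings.

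The remaining lists had fewer called differences or calls on both sides. Among auxin genes, the difference was called more positive in QJ in 4 of 22 tested members (18.2%) and more negative in 2 (9.09%), with a median of 0.45. The counts became 2 and 3 after median centring. Of 9 cytokinin, gibberellin and brassinosteroid genes, 3 were more positive and 3 more negative in QJ. For glutathione S-transferases, the difference was called more positive in QJ in 4 of 22 tested members (18.2%) and more negative in 0 (0%), with a median of 0.32. Of these 22, 5 were called down in QJ and 13 in LJ, against 12.9% and 24.1% of all tested genes. Called up were 5 in QJ and 4 in LJ, against 24.1% and 23.5%. The counts of differences became 2 and 3 after median centring and 3 and 1 after quantile normalization. For lipid transfer proteins, the difference was called more positive in QJ in 6 of 27 tested members (22.2%) and more negative in 1 (3.7%), with a median of 0.45. The counts became 5 and 3 after median centring and 6 and 2 on the authors' scale. For heat shock factors and chaperones, the difference was called more positive in QJ in 1 of 18 tested members (5.56%) and more negative in 1 (5.56%), with a median of -0.13. The counts became 0 and 3 after median centring, 1 and 2 after quantile normalization and 0 and 3 on the authors' scale. For receptor-like kinases and proteins, the difference was called more positive in QJ in 9 of 102 tested members (8.82%) and more negative in 13 (12.7%), with a median of 0.04. The counts became 4 and 19 after median centring and 4 and 14 after quantile normalization. The heat shock median was 0.00 after quantile normalization, and the receptor-like median turned negative under all 3 scalings.

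**Figure D5:**
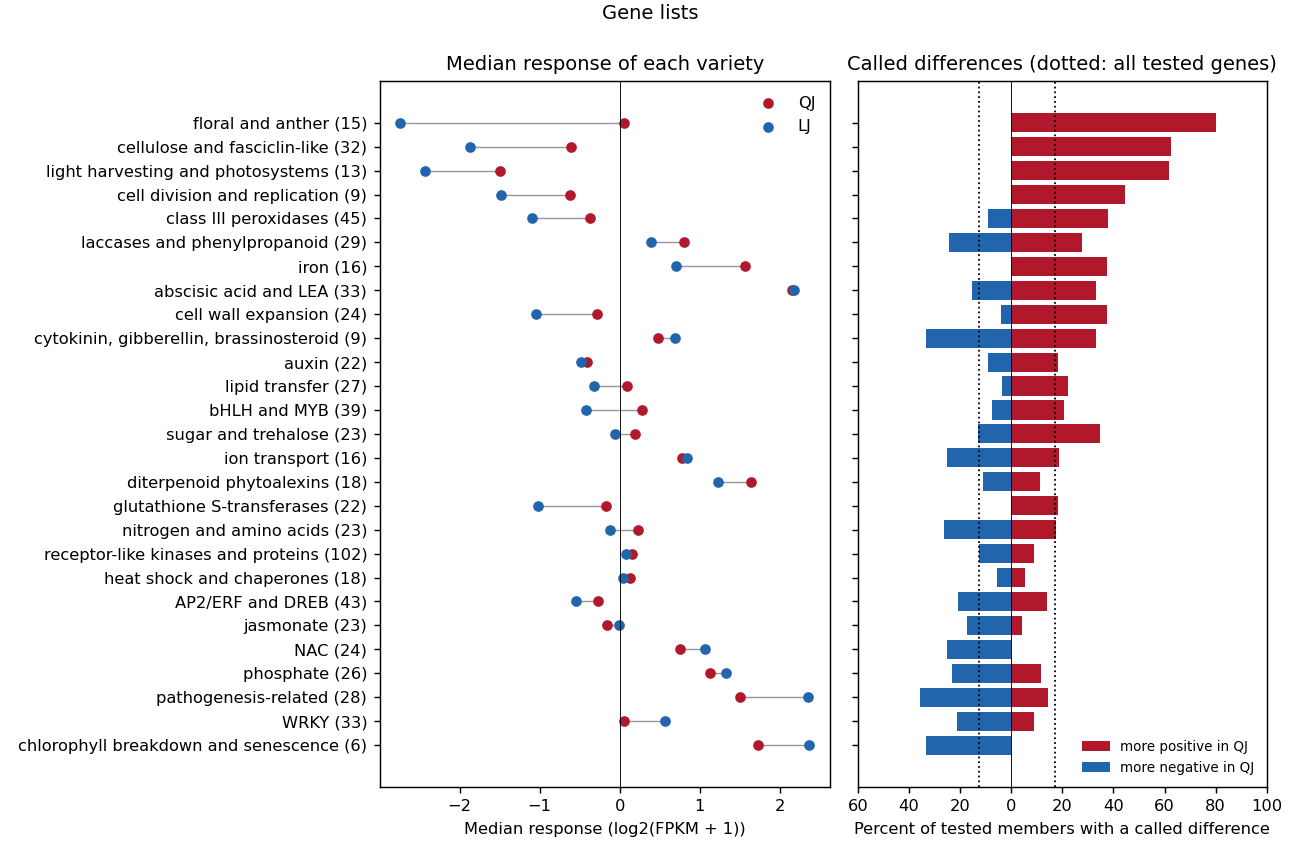
Median response of each gene list in QJ and LJ (left, log2(FPKM + 1)) and percent of its tested members with a called difference (right), with the number tested in brackets and dotted lines at 17.1% more positive and 12.4% more negative in QJ over all tested genes. The floral, wall and light-harvesting lists lie to the positive side, and the pathogenesis-related, NAC and chlorophyll breakdown lists to the negative side.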

How the data were processed

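Leaf total RNA of 12 samples was sequenced, and the deposited values are FPKM per library with the authors' group means, per the file headers. The tables also hold the authors' fold change as a ratio and on the log2 scale, and their p-values, per the file headers. The authors' test, aligner, annotation, counting of shared reads and genome build are nowhere stated (not given in the sources used here). Read depth is unknown, so no counting interval is given. Groups follow the column headers, because the names of the 2 stress tables give the other variety. Values listed in more than 1 table, 31572 in number, were identical, and 0 columns of libraries stayed unmapped. Headers exchanged between the varieties in all 4 tables would give the same identity. QJ replicate numbers rest on sample titles.

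A linear model of 4 group means was fitted to log2(FPKM + 1) with limma 3.58.1 (R 4.3.3) with a trended prior, and p-values were adjusted by Benjamini-Hochberg over the 5170 tested genes. The procedure was run on simulated data with known changes. It met the criterion now used for that test, which was set after several earlier criteria had not been met. Alternatives were pseudocounts of 0.1, 0.5 and 5, no filter, a filter of 5 FPKM, 2 other scalings, a replicate block, limma's robust prior, limma with no trend, leaving out each library, other minimum sizes, and genes in both stress tables alone. A scaling to the authors' fold changes was chosen after seeing the data.

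The members, lists and tests were chosen with earlier results of these data known. Among genes with a name that averaged 5 FPKM or more in some group, the text names the 6 largest differences each way, the 4 largest shared and the 4 largest opposite responses each way, the highest and lowest of each of 27 lists, and a set of stress genes. SalT, SNAC1, OsNAC3, P5CS and NYC1, of that set, were not among the tested genes. Chosen after their values were seen were AMT3, BC1, C4H1, CAB1R, CAB2R, CESA7, COPT1, DERF12, LHCB, Lhcb1.1, LHY, NOL, OsABI5-1, OsAMT2, OsCAD6, OsCesA4, OsFLA15, OSH15, OsHAK24, OSINV3, OsIRT2, OsJAZ4, OsLAC28, OsLEA18, OsLEA33, OsLysM-RLK1, OsMADS2, OsMADS7, OsMIR, OsNRAMP1, OsNRT1.5B, OsPAO, OsPAP21b, OsPR4, OsSPX-MFS1, OsWRKY69, PHR3, prx71, RAB16B, RAB16C, RBCS, RbcS1, RNS4, TIFY11A and WDA1. Clone-type names were not counted as names, lists were matched by symbol and in part corrected after values were seen, and the patterns that match the cell type markers were written after the files were read. DL, EAT1, MADS17, OsFLA5, OsFLA26 and Udt1 were also chosen after their values were seen. No sequence is shown, because the reference table used holds none.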

Additional observations from a re-analysis of the deposited data

Results flagged for a closer look

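A difference of responses that passed its own test, between the varieties, was the reason for a closer look at 67 of the 91 named genes: 35 with a called difference more positive in QJ and 32 more negative. Groups of 3 libraries are too small for a search for single outlying libraries. Many of these genes were named for the size of their difference, so the values are descriptions. The sign was fixed by how they entered the test at least for OSC6, Pox1(Px, prx39, OsFLA9, SKC1, OsUCL35 and OsCKX1. The differences, QJ minus LJ on the log2(FPKM + 1) scale, are given by size.

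More positive in QJ, the difference was 6.56 for OSC6, 5.45 for Pox1(Px, 5.33 for Osc4, 4.91 for prx39, 4.60 for OsFLA9 and 4.53 for Rir1b. Next came 3.94 for DEFL8, 3.93 for OsAT4, 3.34 for ROMT9, 3.28 for SUS1, 3.12 for OsLEA14 and 2.85 for OsXTH19. Then followed 2.85 for OsAGP13, 2.81 for OsLAC5, 2.40 for OsbHLH120, 2.22 for OsIRO3, 2.20 for OsGA2ox9 and 2.17 for OsHAK4. After these stood 2.02 for OsWRKY113, 2.01 for CycU2, 1.89 for OsRLCK144, 1.78 for OsERF#033, 1.73 for OsGSTF14 and 1.69 for OsSWEET3a. Smaller values were 1.57 for OsNRT1.7, 1.5 for OsIAA14, 1.46 for OsSWEET15, 1.39 for OsCPS4, 1.38 for PsbX and 1.28 for HSfC2b. The smallest were 1.23 for OsIRO2, 1.16 for hkt7, 1.15 for OsJAZ11, 1.14 for OsSPX6 and 1.13 for SKC1.

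More negative in QJ, the difference was -6.30 for OsRMC, -5.97 for Sci1, -5.15 for OsUCL35, -5.12 for Cht2*, -4.77 for OsCHX15 and -4.62 for OsOxO3. Next came -4.51 for OsWRKY23, -4.42 for CYP76M2, -4.35 for OsRNS5, -4.35 for OsERF#133, -4.03 for OsLAC29 and -3.53 for OSINV2. Then followed -3.45 for OsSAUR17, -3.39 for OsSDS1, -3.39 for OsWRKY70, -3.34 for ONAC016, -3.17 for OsLEA3-1 and -3.03 for OsTPP1. After these stood -2.79 for GLP12-3, -2.69 for ASN1, -2.59 for prx37, -2.58 for OsCKX1, -2.42 for OsPAP20b and -2.42 for OsDREB1G. Smaller values were -2.24 for OsJAZ, -2.08 for OsLTPG18, -1.40 for OsbHLH037, -1.28 for EGY3, -1.18 for OsXTH11 and -1.15 for OsDREB1A. The smallest were -1.13 for SGR and -1.07 for HSFA2D.

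After median centring 6 of these genes fell under a size of 1: OsSPX6, HSfC2b, OsJAZ11, SKC1, OsIRO2 and hkt7.

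Of these 67, 12 had called responses of opposite sign in the 2 varieties: Osc4, DEFL8, OsAGP13, OsAT4, ROMT9, OsGA2ox9, OsWRKY70, OsRNS5, GLP12-3, OsSDS1, prx37 and OsSAUR17.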

How the results depend on the processing

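Counts moved by over 1.5 times under these settings. With a pseudocount of 5, 894 differences were called with 439 more positive in QJ, the QJ response in 1064 and the LJ response in 1469. Then 676 responses were shared, 425 like-sized and 185 unlike-sized, and 625 were different: 34 opposite, 155 in QJ and not LJ, 436 in LJ and not QJ. With a pseudocount of 0.1, 637 were unlike-sized, 154 opposite and 119 lay in the controls. Median centring left 567 more positive in QJ, quantile normalization put 299 in the controls, and a filter of 5 FPKM 95. Genes in both stress tables alone, fewer by construction, gave 1534 differences at an adjusted p under 0.05, 761 with size, 325 more positive in QJ, 342 different, 55 in QJ and not LJ, 208 in LJ and not QJ and 112 in the controls. A minimum of 1.5-fold gave 2160 shared, 1112 like-sized, 975 unlike-sized and 186 opposite. A minimum of 4-fold gave 242, 92, 51 and 1 of these, 348 different, 88 in QJ and not LJ and 259 in LJ and not QJ. Other causes were not tested. Leaving out 1 library gave 3316 to 3359 differences, 1519 to 1541 with size, 1298 to 1317 shared and 986 to 1010 different responses. Of the 2150 results for single named genes, 0 turned round, 32 were no longer called and 18 were newly called. OsSPX6 lost its call without LJ_CK replicate 1 (0.99), and NHX1 gained one without any of 6 libraries (-1.04 to -1.02).

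Samples with the same number share a number without a stated pairing. Their deviations correlated at -0.07 to 0.06 over 18 pairs, and at -0.08 to 0.09 over the 36 other pairs. The replicate block gave 3437 differences and 1527 with size, and moved no count by 1.5 times. Depth is unknown, and fold changes of genes near 0 FPKM are understated by the pseudocount.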

Other observations

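Genes with values in 3 of the 4 groups, 3540 in all, could not enter the test: 774 lacked QJ controls, 1755 stressed QJ leaves, 613 LJ controls and 398 stressed LJ leaves. Their values are given without a test, for genes chosen after values were seen. Factors of the AP2/ERF and DREB families were among those without LJ controls. ERF102 (Os09g0457900) averaged 21.1 ± 1.45 FPKM in stressed QJ leaves and 681 ± 9.31 FPKM in QJ controls, and 421 ± 2.8 FPKM in stressed LJ leaves. OsDREB1B (Os09g0522000) averaged 50.9 ± 3.85 FPKM in stressed QJ leaves and 983 ± 11.8 FPKM in QJ controls, and 432 ± 15.6 FPKM in stressed LJ leaves. In both genes the stressed LJ leaves lay between the QJ groups.

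The largest group, 1755 genes without values in stressed QJ leaves, held 1445 that were lower in stressed than in control LJ leaves. RTS (Os01g0929600), an anther gene, averaged 122 ± 6.54 FPKM in LJ controls and was listed at 0 in stressed LJ leaves and in QJ controls. OsChia1 (Os05g0399700), a chitinase, averaged 0.1 ± 0.0693 FPKM in stressed LJ leaves and 470.4 ± 10.8 FPKM in LJ controls, and 0.04 ± 0.0693 FPKM in QJ controls. Genes of photosystem I and II were among those without QJ controls. PsaG (Os09g0481200) averaged 283 ± 1.59 FPKM in stressed QJ leaves, and 106 ± 0.552 FPKM in stressed LJ leaves and 461 ± 7.41 FPKM in LJ controls. PsbY (Os08g0119800) averaged 258 ± 7.37 FPKM in stressed QJ leaves, and 76.5 ± 1.93 FPKM in stressed LJ leaves and 335 ± 11.5 FPKM in LJ controls. OsWRKY104 (Os11g0117400), without stressed LJ leaves, averaged 53.6 ± 2.06 FPKM in stressed QJ leaves and 5.21 ± 1.12 FPKM in QJ controls, and 17.4 ± 0.709 FPKM in LJ controls.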
